A study of Mus musculus with 6 samples.

Results

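The 10 core enzymes of mitochondrial fatty acid beta-oxidation were followed at the transcript level in hind leg muscle of control (Con) and exercise (EX) mice. They are Cpt1b, Cpt2, Acadvl, Acadl, Acadm, Acads, Hadha, Hadhb, Acaa2 and Hadh. They were picked out of the table by gene symbol. All 10 were among the 16759 genes of the deposited table and among the 10883 genes tested, which had a mean of at least 1 FPKM (fragments scaled to transcript length and library depth) over the 6 libraries. The mice were male C57BL/6J animals of 8 weeks at the start, with 3 mice and 3 RNA sequencing libraries in each group. EX mice ran on a treadmill for 60 min on 5 days a week over 6 weeks, 22 km in all, with the muscle taken 24 h after the final run. Con mice had no treadmill training. Mice were perfused with PBS, the muscle was freed of intermuscular fat, and the labels name neither the muscle nor its fibre type. Of the mice, only the running differed by label, and no genotype other than the strain is given.

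Beta-oxidation shortens a fatty acid by an acetyl unit per turn inside the mitochondrion. A long fatty acid enters as a carnitine ester, and each turn then passes through an acyl-CoA dehydrogenase, a hydratase, a hydroxyacyl-CoA dehydrogenase and a thiolase. In muscle at rest and in prolonged running this route supplies much of the fuel, and its genes are well-known targets of the PPAR and ERR nuclear receptors and their coactivator PGC-1alpha. Bulk muscle RNA holds many cell types, so fewer cells of a type and less RNA per cell cannot be told apart.

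Total counts on genes ranged from 13845362 to 15585048 per library in Con and from 16080487 to 16240431 in EX, so every EX library was deeper than every Con library. The skeletal muscle markers Acta1, Ckm, Ttn, Tnnt3, Mylpf and Mb were all present, with a summed level between 96382 and 104940 CPM in Con and between 107113 and 113078 CPM in EX (counts relative to library depth after TMM scaling, which sets the libraries to a common level). Of these 6 markers 2 rose and 1 fell, and 5 means were higher in CPM but only 2 in TPM. The 7 fast fibre markers summed to between 109137 and 110752 CPM in Con and between 116835 and 120892 in EX, and 4 rose and 2 fell. Slow fibre markers stood apart between the groups. The 7 slow fibre genes summed to between 99.4 and 105 CPM in Con and between 351 and 377 in EX, and all 7 rose. Macrophage markers summed to between 40.5 and 44.8 CPM in Con and between 74.8 and 82.0 in EX, with all 8 higher and 6 of 7 tested past the threshold of the test described later. Endothelial markers summed to between 829 and 848 CPM in Con and between 734 and 753 in EX, with 9 of 10 lower, of which 5 fell, and 1 that rose. Of 7 adipocyte markers 6 were higher, each with every EX value above every Con value, and Adipoq, Cidec, Cfd and Retn rose, 4 of 5 tested. The lower marker, Fabp4, which endothelium also expresses, made up most of the sum, and the summed levels overlapped, from 232 to 251 CPM in Con and from 249.4 to 257 in EX. The brown fat markers Cidea and Elovl3 had 0 to 8 counts per library. Heart markers summed to between 2.16 and 2.38 CPM in Con and between 2.21 and 4.14 in EX. Tnnt2, the 1 heart marker tested, rose, from 20, 21 and 18 counts in Con to 28, 50 and 41 in EX. Means were lower in EX for Myh6 (0.783 and 0.571 CPM) and Tnni3 (0.174 and 0.127 CPM). Nppa had no count in Con and 1 count in EX replicate 1 only. The part of these shifts in the results that follow was not tested.

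All 10 enzyme transcripts were abundant, and their order was nearly the same in both groups. Per length, in TPM (transcript abundance scaled for length and to the same total in each library), Hadhb ranked first in Con at 396 ± 13.1 (SD, n = 3) and Acadvl next at 306 ± 2.49. Acadm followed at 265 ± 16.0, Cpt1b at 242.5 ± 3.19, Acadl at 230.3 ± 7.73 and Hadha at 216 ± 2.46. The lowest levels were those of Acaa2 at 194 ± 3.13, Hadh at 158 ± 9.04, Acads at 71.3 ± 1.84 and Cpt2 at 57.5 ± 0.821 TPM. In Con no neighbours in this order had overlapping values. In EX the order was kept apart from Acadl, which moved below Hadha, and the values of these neighbours overlapped (183 ± 5.71 and 191 ± 4.17 TPM, n = 3). The summed level of the 10 genes was 2118, 2149 and 2147 TPM in the Con libraries and 1898, 1852 and 1863 TPM in the EX libraries. After TMM scaling the sums were 2645, 2669.7 and 2637 CPM in Con against 2479, 2494 and 2466 in EX, a smaller gap in the same direction.

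**Figure D1:**
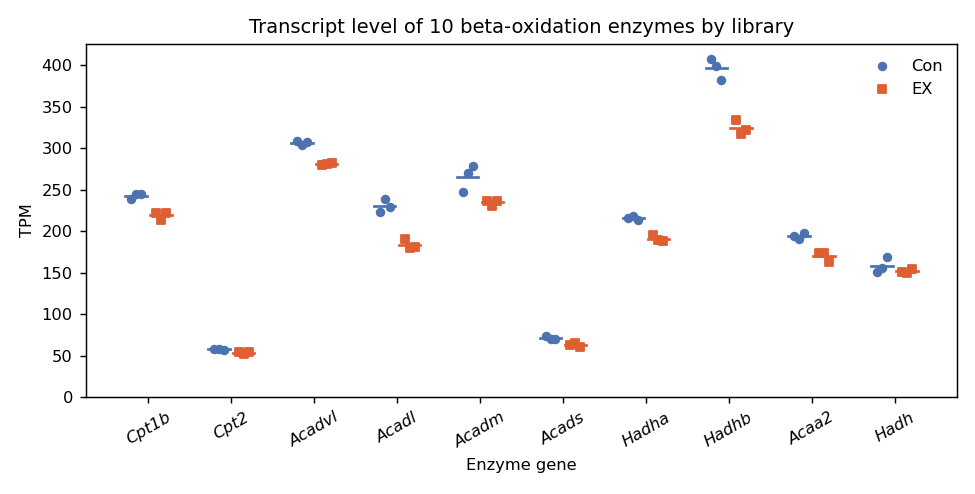
Transcript level of the 10 enzymes in TPM on a linear axis, with a point for each library and a short line for the mean of the 3 Con and the 3 EX libraries. Hadhb is highest and Cpt2 lowest in both groups, and for 9 of the 10 genes every EX point lies below every Con point on this scale.

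Most of the enzymes were slightly lower in EX than in Con, and 2 passed the test. Acadl and Hadhb fell, none of the 10 rose, and 8 did not pass an adjusted p-value under 0.05 (edgeR's quasi-likelihood test, Benjamini-Hochberg adjustment over all genes tested). Among all genes tested, 8.8% fell and 9.11% rose, 17.9% in either direction. The log2 fold change was below 0 for 9 of the 10 members and for 50.3% of all genes. The median over the members was -0.08 on the log2 scale, beside 0.00 over all genes tested. Every EX value in CPM lay below every Con value for Cpt1b, Acadl, Hadha, Hadhb and Acaa2, 5 of 10 members, and this held for 16.9% of all genes. On the TPM scale it held for 9 of 10 members, where 33.5% of all genes did so.

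The number of enzymes past the threshold depended on the scaling. With library totals and no TMM factor, 7 of the 10 fell, beside 16.3% of all genes. With limma on log2(FPKM + 0.1), 4 fell, beside 9.53% of all genes. With limma on log2(TPM + 0.1), 8 fell, and 15.5% of all genes did. The split over all genes moved as well, from 991 higher and 958 lower to 585 and 1774 with library totals, and to 340 and 1684 on TPM. Relative to the median of all genes in the same fit, the members' median stayed near its first value, at -0.08 in each of these fits. The TMM factors were 1.01 to 1.03 in Con and 0.971 to 0.988 in EX, and the summed share of the top 20 genes in all counts ran from 30.1% to 30.8% in Con and from 31.7% to 32.5% in EX.

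**Figure D2:**
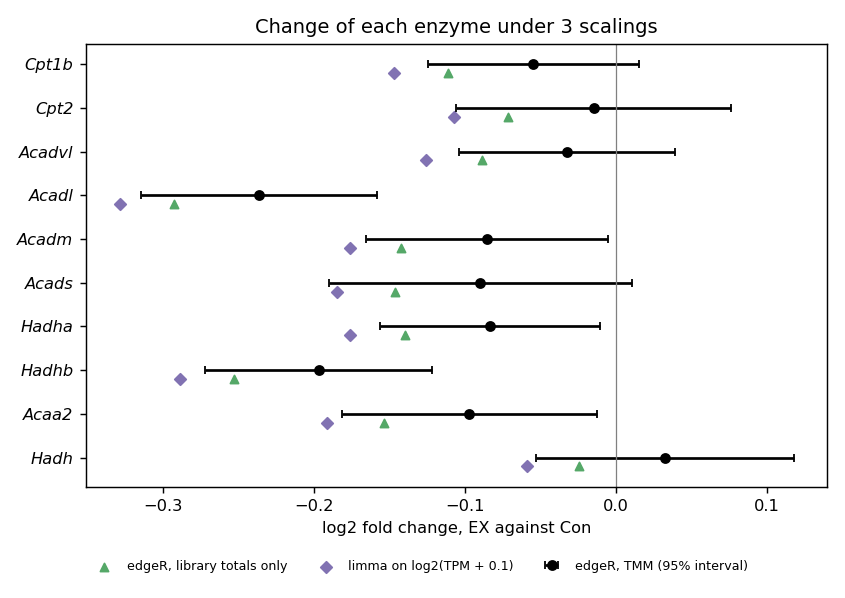
Log2 fold change of EX against Con for each enzyme, with the edgeR estimate after TMM scaling (circle, bar for its 95% interval), edgeR on library totals only (triangle) and limma on log2(TPM + 0.1) (diamond). Acadl and Hadhb lie farthest below 0 under all 3, and Hadh is above 0 after TMM scaling (0.03) but below it under the other scalings.

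The largest fall was in Acadl (gene 11363), the long-chain acyl-CoA dehydrogenase, which in mouse takes part in the first oxidation step of long acyl chains. Its levels were 247, 263 and 250.1 CPM in Con and 219.6, 214 and 211 CPM in EX. Every EX library was below every Con library, and the lowest Con value exceeded the highest EX value. The fall was 0.24 on the log2 scale (standard error, SE, 0.04, edgeR adjusted p = 4.5e-05), a change of -15.1% with a 95% interval from -19.6% to -10.4%. Over the 16 alternatives the log2 fold change of Acadl ranged from -0.33 to -0.21 and its adjusted p from 3.8e-07 to 2.1e-03.

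Hadhb (gene 231086) encodes the beta subunit of the mitochondrial trifunctional protein, which carries its thiolase activity, and Hadha (gene 97212) the alpha subunit, which carries the hydratase and hydroxyacyl-CoA dehydrogenase activities for long chains. Hadhb stood at 479, 465 and 441 CPM in Con and at 408, 401 and 399 CPM in EX, so that the groups did not overlap. It fell by 0.20 on the log2 scale (SE 0.04, edgeR adjusted p = 2.6e-04), a change of -12.8% with an interval from -17.2% to -8.11%. Hadha stood at 352, 354 and 343 CPM in Con and at 333, 333.5 and 323 CPM in EX. Its groups did not overlap either, yet its log2 fold change of -0.08 (SE 0.04, edgeR adjusted p = 0.11) did not pass. When the filter was raised to 5 FPKM on average, which leaves 7189 genes, of which 10.7% fell, the adjusted p of Hadha was 0.046. Hadha also fell with library totals (-0.14, edgeR adjusted p = 5.2e-03). With limma it fell on log2(FPKM + 0.1) (-0.14, adjusted p = 0.028) and on log2(TPM + 0.1) (-0.18, adjusted p = 0.01).

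Both subunits belong to the same protein, so their transcripts were also compared within each library, where the scaling cancels. The ratio of Hadha to Hadhb counts was 0.735, 0.760 and 0.777 in Con and 0.817, 0.831 and 0.808 in EX. All EX ratios were higher than all Con ratios, with means of 0.757 ± 0.0214 and 0.819 ± 0.0116 (SD, n = 3), 1.08 times as high in EX. The exact permutation test, two-sided, gave p = 0.1, and no smaller value is possible with 3 mice in each group. Leaving out any one library kept the EX to Con quotient between 1.07 and 1.10.

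**Figure D3:**
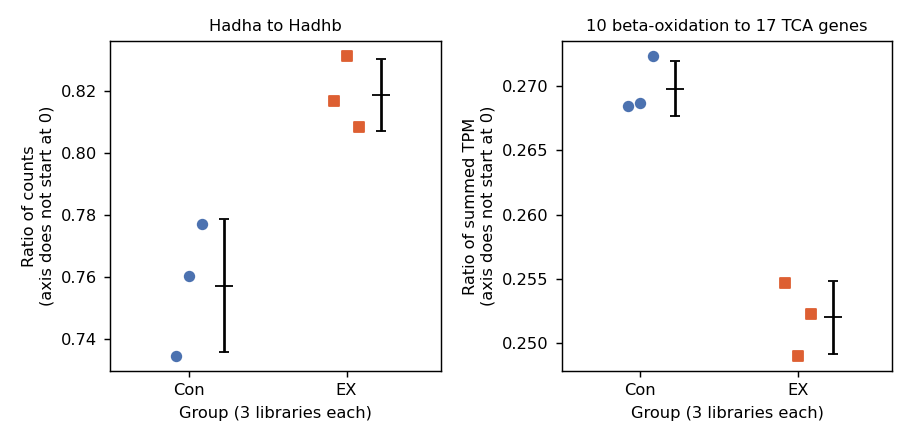
Ratios within each library, with a point per library and the mean ± SD beside each group of 3: Hadha to Hadhb counts (left) and the summed TPM of the 10 enzymes to that of 17 tricarboxylic acid cycle genes (right). The Hadha to Hadhb ratio is higher in every EX library (0.808 to 0.831) than in any Con library (0.735 to 0.777), while the ratio to the tricarboxylic acid cycle genes is lower.

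The genes of the subunits lie head to head. In the RefSeq table for GRCm38.p6, their starts on chromosome 5 are 272 bases apart on opposite strands, and the 250-base windows before them share 228 bases. The window of Hadhb is shown because it lies between both subunits' starts, and that of Acadl because this gene fell most. Those of Acadm and Acadvl are shown as the members with a nuclear receptor hexamer. Each is printed 5′ to 3′ on the strand of its gene up to the base before the start. Capitals mark GGGCGG (the GC box) on either strand in Hadhb at chr5:30155003-30155252 (+ strand) and Acadl at chr1:66863310-66863559 (- strand), AAGGTCA on either strand in Acadm at chr3:153944644-153944893 (- strand), and AGGTCA on either strand in Acadvl at chr11:70015429-70015678 (- strand).
Hadhb: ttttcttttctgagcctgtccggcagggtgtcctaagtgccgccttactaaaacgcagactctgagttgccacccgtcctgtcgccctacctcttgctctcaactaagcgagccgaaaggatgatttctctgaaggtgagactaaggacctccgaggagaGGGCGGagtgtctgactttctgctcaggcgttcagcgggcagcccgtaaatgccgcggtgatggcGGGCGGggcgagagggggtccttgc
Acadl: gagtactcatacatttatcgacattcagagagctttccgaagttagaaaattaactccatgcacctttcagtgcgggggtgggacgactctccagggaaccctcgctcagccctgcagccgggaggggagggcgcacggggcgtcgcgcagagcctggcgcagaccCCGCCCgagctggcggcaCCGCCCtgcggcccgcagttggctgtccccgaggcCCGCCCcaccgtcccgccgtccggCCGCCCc
Acadm: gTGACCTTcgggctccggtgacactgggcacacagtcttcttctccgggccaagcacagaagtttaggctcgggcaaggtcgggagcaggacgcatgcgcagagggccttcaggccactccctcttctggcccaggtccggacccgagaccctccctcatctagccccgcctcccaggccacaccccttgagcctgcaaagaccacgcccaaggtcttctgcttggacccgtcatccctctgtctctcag
Acadvl: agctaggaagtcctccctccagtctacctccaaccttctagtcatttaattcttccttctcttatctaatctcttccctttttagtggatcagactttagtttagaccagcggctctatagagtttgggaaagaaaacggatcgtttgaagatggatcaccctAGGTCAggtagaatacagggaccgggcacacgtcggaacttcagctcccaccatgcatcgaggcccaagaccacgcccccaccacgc

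RefSeq windows were at hand for 8 of the 10 members, without Cpt1b and Acaa2. GGGCGG was found in 6 of the 8, in Cpt2, Acadl, Acads, Hadha, Hadhb and Hadh, and in 32.7% of all 32851 windows of that length. Acadl held 4 matches and Hadhb 2. The windows of Hadha and Hadhb share 228 bases, and the 1 match in Hadha is also among those of Hadhb. The 6 genes with a match are therefore not 6 separate sites. The hexamer AGGTCA was found in Acadm and Acadvl, and in 14.0% of all windows. Its longer form AAGGTCA, which contains the hexamer, was found in Acadm and in 4.08% of all windows. A direct repeat of AGGTCA with 1 base of any kind between the copies was in none of the 8 and in 0.0335% of all windows. These are matches of letters in a short window and say nothing of binding.

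Import into the mitochondrion was covered by Cpt1b (gene 12895), the muscle carnitine palmitoyltransferase of the outer membrane that sets the rate of entry, and Cpt2 (gene 12896), its partner on the inner membrane. Cpt1b stood at 418, 425 and 422 CPM in Con and at 406, 403 and 409.8 CPM in EX. Its groups did not overlap, but the gap was small. After TMM scaling the log2 fold change of -0.05 (95% interval -0.12 to 0.02, adjusted p = 0.29) did not pass edgeR's quasi-likelihood test. Cpt1b fell with library totals (-0.11, edgeR adjusted p = 0.021) and with limma on log2(TPM + 0.1) (-0.15, adjusted p = 0.02). Cpt2 had values between 77.1 and 80.1 CPM in Con and between 76.8 and 79.3 in EX, which overlapped. Its log2 fold change was -0.01 (interval -0.11 to 0.08, adjusted p = 0.86), and from -0.032 without Con replicate 3 to -0.0032 without EX replicate 2 when a library was left out. Slc25a20, the carrier that moves acylcarnitines across the inner membrane between both enzymes, did not pass either (log2 fold change 0.01, adjusted p = 0.94), and its sign changed with the scaling.

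The acyl-CoA dehydrogenases other than Acadl did not pass in edgeR after TMM scaling. With library totals, Acadm and Acads fell (edgeR adjusted p = 0.012 and 0.031). With limma on log2(TPM + 0.1), Acadm, Acads and Acadvl fell (-0.18, -0.18 and -0.13, adjusted p = 0.03, 0.024 and 0.026). Acadvl (gene 11370), for very long chains, had values between 384 and 392 CPM in Con and between 371 and 384 in EX, which overlapped, and a log2 fold change of -0.03 (95% interval -0.10 to 0.04, adjusted p = 0.58, edgeR). Acadm (gene 11364), for medium chains, stood at 293, 319 and 325 CPM in Con and at 292, 295 and 296 CPM in EX. Its Con replicate 1 lay among the EX libraries, apart from the other Con libraries. The log2 fold change of Acadm was -0.09 (interval -0.17 to -0.00, adjusted p = 0.14, edgeR) with all libraries, and -0.13 (adjusted p = 5.4e-03) without Con replicate 1. Acads (gene 11409), for short chains, had values between 72.6 and 77.4 CPM in Con and between 66.9 and 74.4 in EX, which overlapped, and a log2 fold change of -0.09 (interval -0.19 to 0.01, adjusted p = 0.22, edgeR). For Acads it was -0.057 without EX replicate 3 and -0.14 without EX replicate 2, and for Acadvl it was -0.019 without EX replicate 1.

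The balance among the dehydrogenases was read from their ratios within a library, chosen after the values were seen and so given with no test. Acadl was 0.724, 0.785 and 0.747 times the TPM level of Acadvl in Con, and 0.679, 0.641 and 0.639 times in EX. Against Acadm, the TPM ratio of Acadl was 0.902, 0.882 and 0.825 in Con and 0.805, 0.779 and 0.762 in EX. The EX values were lower in both ratios with no overlap.

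The last steps for shorter chains rest on Hadh (gene 15107), the hydroxyacyl-CoA dehydrogenase for medium and short chains, and Acaa2 (gene 52538), the 3-ketoacyl-CoA thiolase. Acaa2 stood at 156, 152 and 155 CPM in Con and at 145, 150.4 and 138 CPM in EX. All EX values were below all Con values, and the log2 fold change of -0.10 (95% interval -0.18 to -0.01, adjusted p = 0.11, edgeR) did not pass. It passed with limma on log2(FPKM + 0.1), at -0.16 (adjusted p = 0.034). Hadh stood at 151, 154 and 165 CPM in Con and at 158, 161 and 163 CPM in EX, with the EX values inside the Con range. It was the one member with a fold change above 0 after TMM scaling, at 0.03 (interval -0.05 to 0.12, adjusted p = 0.65, edgeR), and it turned to -0.02 with library totals. Without Con replicate 1 the log2 fold change of Hadh was 0.0024, without Con replicate 2 it was 0.016, without Con replicate 3 it was 0.072 and without EX replicate 3 it was 0.021.

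**Figure D4:**
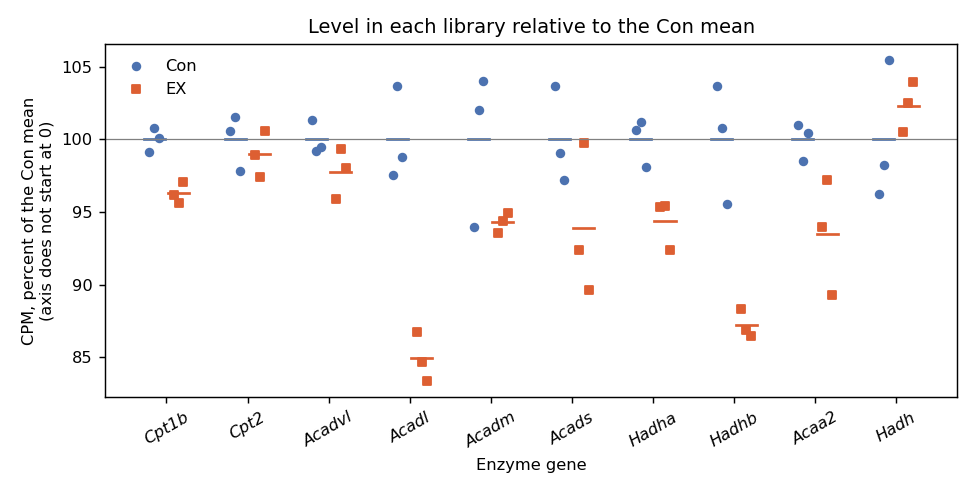
Level of each enzyme in each library as a percentage of its Con mean in CPM, with points for the 3 Con and 3 EX libraries, short lines for the means, and an axis that does not start at 0. Acadl and Hadhb lie lowest in EX, Con replicate 1 of Acadm (leftmost Con point) lies near the EX points, and Hadh has its EX points inside the Con range.

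Each member's share of the summed TPM of the 10 is free of the scaling as well. The share of Acadl fell below its Con range, with means of 10.8% in Con and 9.80% in EX, and so did that of Hadhb, with 18.5% and 17.3%. The shares of Cpt1b, Cpt2, Acadvl and Hadh lay above their Con ranges, and those of Acadm, Acads, Hadha and Acaa2 overlapped. Shares sum to a whole, so a lower share of some members raises that of others. Within a group the members' levels in CPM varied little. Coefficients of variation in CPM lay between 0.837% for Cpt1b and 5.33% for Acadm in Con, and between 0.730% for Acadm and 5.58% for Acads in EX.

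Across the 6 libraries, the 45 pairs of members had Pearson correlations of log2 CPM from -0.66 (Hadhb with Hadh) to 0.94 (Hadha with Hadhb), with a median of 0.50. These correlations take in the difference between the groups and the shared library, and they are a description. The genes most like the members' mean profile over the 6 libraries, among 5900 others with a mean of at least 20 CPM, were Nsd1, Uaca, Cyp2d22, Srrm2 and Itpkb, with r from 0.992 to 0.998. With so few libraries 431 genes had r above 0.9.

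Other genes of the pathway gave the following counts. Of 9 auxiliary matrix enzymes, 8 were lower and 1 higher, with a median log2 fold change of -0.08, and 2 fell. Ech1, a dienoyl-CoA isomerase that handles unsaturated chains, stood at 138, 138 and 134 CPM in Con and at 115, 122 and 122 in EX. It fell by 0.20 on the log2 scale (SE 0.04, edgeR adjusted p = 1.1e-03). Acat1, the acetoacetyl-CoA thiolase, fell by 0.14 (adjusted p = 9.2e-03), with an adjusted p of 0.081 without EX replicate 3.

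Of 7 tested genes of the carnitine shuttle and its malonyl-CoA brake, 6 were lower, with a median of -0.07. Acacb alone fell, the acetyl-CoA carboxylase that makes the malonyl-CoA inhibiting Cpt1b, from 502 ± 8.87 to 461 ± 12.7 CPM (SD, n = 3), or -0.12 on the log2 scale (edgeR adjusted p = 0.013). Without EX replicate 3 its adjusted p was 0.11, and without EX replicate 1 it was 0.052. None of the 3 electron transfer genes Etfa, Etfb and Etfdh passed (median -0.03), nor did any of 8 other acyl-CoA dehydrogenases (median -0.02), several of which act on branched chains and amino acid products.

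In the peroxisome, where very long chains are shortened, the balance of higher and lower genes depended on the scaling. Of 12 tested genes, 8 were higher and 4 lower after TMM scaling, with a median of 0.07, while 5 had a higher and 7 a lower mean in TPM. Abcd2, a transporter of very-long-chain acyl-CoA, rose from 81.2 ± 1.87 to 97.0 ± 2.83 CPM (SD, n = 3), or 0.26 on the log2 scale (edgeR adjusted p = 1.0e-04). The other 11 did not pass. On limma with TPM the adjusted p of Abcd2 was 0.053.

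**Figure D5:**
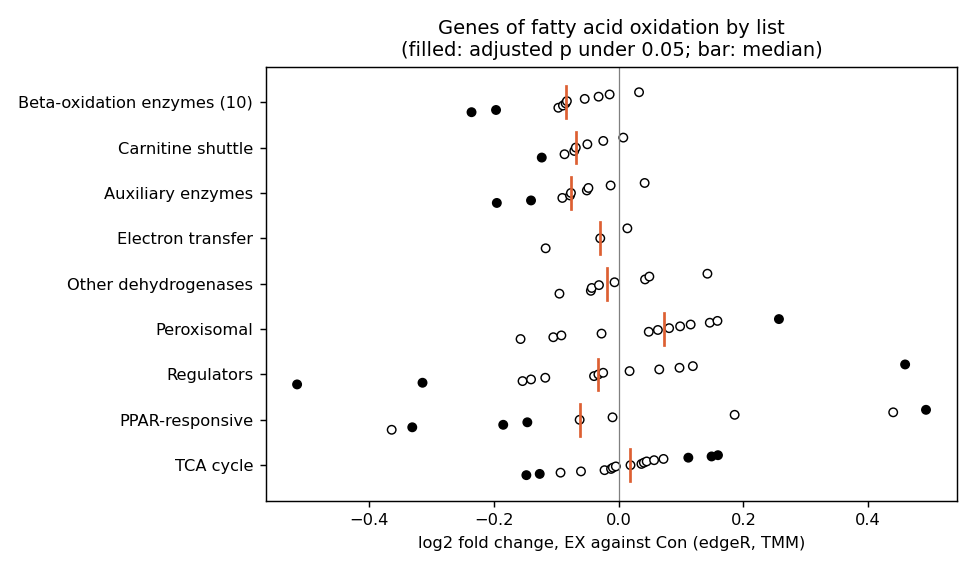
Log2 fold change of EX against Con (edgeR after TMM scaling) for the genes tested in each list, with filled points for an adjusted p under 0.05 and a bar at each median. The beta-oxidation, carnitine shuttle and auxiliary lists have medians of -0.08, -0.07 and -0.08, the peroxisomal list one of 0.07 (with 7 of its 12 genes lower on TPM), and the filled points farthest from 0 are Ppara among the regulators and Ucp3 among the PPAR-responsive genes.

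Among 13 regulators, 2 fell, 1 rose and 10 did not pass, with a median of -0.03. Ppara, the nuclear receptor that drives beta-oxidation genes in muscle and liver, stood at 19.2, 19.0 and 20.3 CPM in Con and at 13.8, 13.4 and 13.8 in EX, with no overlap. It fell by 0.52 on the log2 scale (SE 0.08, edgeR adjusted p = 1.4e-05). Esrrg, an estrogen-related receptor of oxidative muscle, fell by 0.31 (SE 0.08, edgeR adjusted p = 5.5e-03). Nrip1, a corepressor of these receptors, stood at 42.0, 43.8 and 42.6 CPM in Con and at 60.1, 57.0 and 59.5 in EX. It rose by 0.46 (SE 0.05, edgeR adjusted p = 1.0e-07). Ppargc1a, which encodes PGC-1alpha, had values that overlapped and a log2 fold change of 0.10 (adjusted p = 0.25), which was 0.043 without Con replicate 1 and 0.013 with limma on TPM. The calls of Ppara, Esrrg and Nrip1 held under every alternative in which they were tested.

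The 9 PPAR-responsive genes outside beta-oxidation moved both ways, with 3 that fell, 1 that rose and 5 that did not pass, and a median of -0.06. Ucp3, the uncoupling protein of muscle, rose from 176 ± 14.8 to 248 ± 2.90 CPM (SD, n = 3), or 0.49 on the log2 scale (edgeR adjusted p = 4.8e-09). Fabp3, the fatty acid binding protein of heart and muscle, fell by 0.33 (adjusted p = 8.8e-05). Pdk4, the kinase that holds back pyruvate oxidation, fell by 0.19 (adjusted p = 2.1e-04). Cd36, a fatty acid transporter, fell by 0.15 (adjusted p = 4.3e-03), with an adjusted p of 0.056 without EX replicate 3.

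Set against the tricarboxylic acid cycle, which burns the acetyl-CoA, the members were lower within each library. The summed TPM of the 10 enzymes was 0.268, 0.269 and 0.272 times that of 17 cycle genes in Con, and 0.255, 0.249 and 0.252 times in EX. On this scale the cycle genes were lower in EX as well, with sums of 7889, 7999 and 7886 TPM in Con and 7453, 7437 and 7384 TPM in EX and a lower mean for 14 of the 17. After TMM scaling, 9 of the cycle genes were higher and 8 lower in EX, with a median log2 fold change of 0.02, and 3 rose and 2 fell. Dlst rose by 0.16 and Idh3a by 0.15, while Idh3g fell by 0.13 (edgeR, n = 3 mice in each group). On limma with TPM the rises of Dlst (0.07, adjusted p = 0.20) and Idh3a (0.06, adjusted p = 0.41) did not pass, and leaving out EX replicate 1 gave an adjusted p of 0.057 for Idh3g. The calls in the other lists moved with the scaling as well. With limma on TPM, 6 of the auxiliary matrix enzymes, 2 of the carnitine shuttle genes, 1 of the electron transfer genes and 2 of the peroxisomal genes fell, and none of these rose. In the same fit, 5 of the cycle genes fell and none rose, 4 regulators fell and 1 rose, and 4 PPAR-responsive genes fell and 1 rose. No difference between the lists was tested.

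Fibre genes moved in the same libraries. Of the 7 fast fibre markers, the 4 that rose were not myosins, and the median log2 fold change of the list was 0.15 (edgeR after TMM scaling). With limma on TPM, 1 of the 7 rose and 2 fell. Myh2, the myosin of fast oxidative fibres, stood at 767, 743 and 755 CPM in Con and at 440.4, 457 and 452 in EX, a fall by 0.75 on the log2 scale (edgeR adjusted p = 1.4e-15). Myh1, the myosin of intermediate fast fibres, fell by 0.09 (edgeR adjusted p = 0.047), a call lost without 4 of the 6 libraries (adjusted p from 0.024 to 0.22 over the 6), and Myh4, that of fast glycolytic fibres, stood at 0.04 (adjusted p = 0.41). No library had a whole count for any of these 3 genes, which have near-identical neighbours, so their values are uncertain. Mb, the myoglobin of oxidative fibres, fell by 0.14 (adjusted p = 3.2e-03). Myh7, the myosin of slow fibres, which also burn fat, rose by 6.65 (edgeR adjusted p = 2.3e-26), from between 0.891 and 1.19 CPM in Con to between 96.7 and 111 in EX. The part of the fibre genes in the levels of the 10 enzymes was not tested.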

How the data were processed

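RNA of hind leg muscle from 3 Con and 3 EX mice was compared. The authors filtered paired-end reads of the DNBseq platform and, by the methods of the study, aligned them with HISAT to GRCm39. The submitters' processing notes name GRCm38.p6, cutadapt, featureCounts and MultiQC, so the build is not settled, and no positions are given for the counts. Per gene and library, the authors deposited TPM, FPKM and estimated counts. The 6 columns of group means were not used. Counts of all 10 members were whole numbers in all 6 libraries.

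Estimated counts were rounded and tested with edgeR 4.0.16 (glmQLFit, glmQLFTest, TMM) in R 4.3.3, with Benjamini-Hochberg adjustment over 10883 genes and a threshold of 0.05. Standard errors are the log2 fold change divided by the root of F. Levels in CPM use the counts of the genes tested as library sizes. Alternatives were other scalings and filters, limma 3.58.1 on FPKM and TPM, DESeq2 1.42.0, a replicate block and each library left out. Fold changes of limma are on the log2(value + pseudocount) scale. The code of the fits was run on simulated counts, with recovery required only for changes larger than those of the members. The simulation did not test the choice of scaling, and its outcome is not reported here. The members and lists were chosen with earlier results of these data known. Genes outside the members were named by rule, as every gene past the threshold in a list, or the 2 largest rises and 2 largest falls where there were more than 4, and some genes of interest, such as Slc25a20 and Ppargc1a, whatever their change. Marker lists are given mainly by sums and counts. The mice are separate animals, and no batch is named. Protein values were not used here. A gene that the rule names is not reported here.

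Promoter sequences are RefSeq windows of GRCm38.p6, credited to RefSeq. In its annotation Cpt1b, Acadvl, Acadl and Hadhb overlap other genes (the long noncoding RNA Gm44502, the microRNA gene Mir324, the pseudogene Gm15793 with the small nuclear RNA gene Gm27934, and the microRNA gene Mir1960, in that order). Strand of the counting is not given in the sources used here, so reads of these 4 members and of their partners cannot be told apart. None of the partners is among the genes of the deposited table. Intervals cover the spread between mice and counting error only.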

Additional observations from a re-analysis of the deposited data

How the results depend on the processing

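The falls of Acadl and Hadhb passed under all 16 alternatives, and none of the 10 enzymes rose under any. The number that fell was 2 in most, 3 with the stricter filter and without Con replicate 1, 7 with library totals, 4 with limma on log2(FPKM + 0.1) and also on log2(FPKM + 1), and 8 with limma on log2(TPM + 0.1). In those same 4 fits the members' median was -0.14, -0.14, -0.14 and -0.18, and the median of all genes was -0.06, -0.06, -0.05 and -0.09. Leaving out a library gave a median between -0.089 and -0.063. Over all genes, DESeq2 called 643 higher and 585 lower, library totals 585 and 1774, limma on FPKM 411 higher with either pseudocount and 1037 or 1032 lower with a pseudocount of 0.1 or 1, and limma on TPM 340 and 1684. The cause of the lower DESeq2 counts was not tested.

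Hadh turned to -0.024 with library totals, to -0.024 and -0.023 with limma on FPKM and to -0.059 on TPM. Slc25a20 turned to -0.0070 with the stricter filter, to -0.049 with library totals, to -0.051 with both pseudocounts on FPKM and to -0.087 on TPM, and it ranged from -0.025 to 0.026 with a library left out. Myh4 turned to -0.018 with library totals, to -0.018 with both pseudocounts on FPKM and to -0.054 on TPM.

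The replicate block gave 2 members that fell, 909 genes higher and 873 lower, and a median of -0.08. Same-numbered libraries had correlations of their deviations from -0.084 to -0.052, and differently numbered ones from 0.0053 to 0.067. Deviations from a mean of 3 libraries are tied to each other, so this check cannot settle whether the numbers pair the mice. Under the block Myh1 did not pass (edgeR adjusted p = 0.073). Depth was higher in every EX library than in any Con library. With 3 mice a group, changes of a few percent in the members lie within the intervals given.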

Other observations

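Some listed genes lay under the filter on low values and were not tested. Cpt1c, the carnitine palmitoyltransferase of nerve cells, was counted 32, 27 and 23 times in the Con libraries, and 32, 15 and 23 times in EX. Acox2, a peroxisomal oxidase of bile acid synthesis, was counted 6, 9 and 6 times in the Con libraries, and 5, 3 and 4 times in EX. Acaa1b, a peroxisomal thiolase, had between 16.4 and 25.5 estimated counts in Con and between 10.3 and 18.3 in EX, none of them whole. The brown fat gene Elovl3 was counted 6, 8 and 5 times in the Con libraries, and 3, 1 and 0 times in EX.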
